A study of Mus musculus with 4 samples.

Results

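The genes described here encode cadherins, protocadherins, contactins, neurexins, neuroligins and the ligands and receptors of axon guidance. They were chosen by symbol from a table of captured methylated regions: a region was taken when its gene label began with Pcdh, Cntn, Nrxn, Nlgn, Robo, Slit, Sema, Plxn, Epha, Ephb, Efna, Efnb, Dscam or Unc5, or with Cdh and a digit. The rule found 244 of the 10000 regions, under 68 of 5349 gene labels. The rule itself uses symbols only, but it was set with earlier results of these data known. The prefix Cntn also takes in the contactin-associated proteins (Cntnap), which are kept as a family of their own, and Unc5 also takes in Unc5cl.

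The regions come from a survey of DNA methylation in CD4+ T cells taken from the spleen and the lymph nodes of Balb/c females, with 1 library for each of 4 sorted populations. The sort markers were CD3+CD4+CD45RB_low IFNg-IL17A+ for Th17 cells, CD3+CD4+CD25++ for regulatory T cells (Treg), CD3+CD4+CD45RB_low IFNg+IL17A- for Th1 cells and CD3+CD4+CD45RB_high for naive cells. All 4 populations were exposed for 3 h to 10 ng/ml PMA together with 500 ng/ml ionomycin, agents which together drive T cells to release cytokines; Th17, Th1 and naive cells were sorted after this step, whereas Treg cells were sorted before it. Sheared DNA was passed over a methyl-CpG binding domain (MethylCap), and 250 ng of the captured DNA went into each library, from which fragments of 250 to 350 bp were kept. Capture rises both with methylation and with the number of CpG sites in a fragment, so a value is an amount of captured DNA and not a methylation level.

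These families are best known from the nervous system. Classical cadherins join like cells through calcium-dependent binding and hold the cytoskeleton through catenins, while protocadherins give neurons surface identities. Contactins are lipid-anchored proteins of the immunoglobulin superfamily that pair with contactin-associated proteins along axons. Presynaptic neurexins bind postsynaptic neuroligins across the synapse, and Dscam proteins mediate recognition between neurites. Growing axons read secreted Slit proteins through Robo receptors, semaphorins through plexins, ephrins through Eph receptor tyrosine kinases, and netrins through Dcc and Unc5 receptors. Some members, such as semaphorins, plexins and Slit and Robo proteins, also act in leukocyte migration and contact.

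The regions were almost all inside gene bodies, and only 5 genes had a region assigned to a promoter (Epha8, Robo1 and Pcdhb3) or to exon 1 (Sema3c and Pcdha1). The sequences shown are the RefSeq promoter windows of Epha8, Robo1 and Sema3c, from 250 bases before to 50 bases after the annotated start in build GRCm38.p6, written 5′ to 3′ on the gene's strand with each CG dinucleotide, the site of methylation that the capture reads, in capitals. They are given to show how much the CpG content of these starts differs. The table's coordinates are in mm9, so the windows are not the captured regions, whose letters are not shown. The Epha8 window is chr4:136956767-136957066 on the minus strand, the Robo1 window is chr16:72662899-72663198 on the plus strand and the Sema3c window is chr5:17574566-17574865 on the plus strand.
Epha8: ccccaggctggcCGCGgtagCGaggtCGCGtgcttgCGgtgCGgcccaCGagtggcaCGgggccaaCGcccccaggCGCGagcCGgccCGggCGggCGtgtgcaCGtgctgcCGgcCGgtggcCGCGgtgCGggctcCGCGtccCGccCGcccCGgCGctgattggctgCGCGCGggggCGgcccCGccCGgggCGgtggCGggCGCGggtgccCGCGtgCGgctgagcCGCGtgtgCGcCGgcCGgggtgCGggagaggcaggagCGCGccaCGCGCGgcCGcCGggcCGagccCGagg
Robo1: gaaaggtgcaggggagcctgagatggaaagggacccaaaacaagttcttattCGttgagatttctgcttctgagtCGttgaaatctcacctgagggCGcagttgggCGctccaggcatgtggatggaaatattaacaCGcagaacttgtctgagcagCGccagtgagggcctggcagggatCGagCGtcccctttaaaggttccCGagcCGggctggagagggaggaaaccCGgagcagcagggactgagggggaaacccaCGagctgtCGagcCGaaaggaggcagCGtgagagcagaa
Sema3c: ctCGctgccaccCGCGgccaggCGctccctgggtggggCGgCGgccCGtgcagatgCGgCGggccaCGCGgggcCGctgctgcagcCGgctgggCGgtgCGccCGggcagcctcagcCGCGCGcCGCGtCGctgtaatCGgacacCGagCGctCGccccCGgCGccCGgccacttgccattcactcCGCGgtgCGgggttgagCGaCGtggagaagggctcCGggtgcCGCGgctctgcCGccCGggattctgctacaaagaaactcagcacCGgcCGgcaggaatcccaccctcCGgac
The Epha8 window holds 56 CG, a number reached by 0.195% of all 32851 RefSeq windows of this length. The Sema3c window holds 42 CG, which 3.03% of windows reach, and the Robo1 window holds 15, which 34.6% reach. CG reads the same on both strands. At least 1 CG stands in 94.6% of windows, with a median of 7 and quartiles of 3 and 20. A window was found for 48 of the 68 genes, too few for a summary over the set.

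The deposited values are whole multiples of 1 constant per library, so they were turned back into reads: 1 read is worth 0.352 in Treg, 1.68 in Th1 and 0.996 in naive cells. The whole table holds 74571 reads in Treg, 19548 in Th1 and 34277 in naive cells, of which the 244 regions took 1778 (2.38%), 436 (2.23%) and 899 (2.62%) in the same order of populations. Single regions are thin: the median was 7 reads in Treg, 2 in Th1 and 4 in naive cells, with ranges of 0 to 20, 0 to 5 and 0 to 9. A region without a read allows up to 3 reads as a 1-sided limit, a value of 1.06 in Treg, 5.04 in Th1 and 2.99 in naive cells; the 2-sided exact interval reaches 1.30, 6.20 and 3.67. With 1 library per population no difference between populations has a replicate check. Intervals in brackets are exact 95% intervals on reads, which cover counting error only. They are not adjusted for the naming of single regions by their ratios. For such a region, an interval that leaves out 1 does not by itself show a difference.

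Th17 values were 0 in all 244 regions, as in all 10000 regions of the table. The worth of 1 Th17 read, and with it the depth of that library, could not be recovered, so no comparison with Th17 cells is given. Of the other populations, Treg lacked a read in 2 of the 244 regions (0.82%, against 0.250% of the table), Th1 in 32 (13.1%, against 12.3%) and naive cells in 5 (2.05%, against 1.61%). All 3 populations had a read in 206 regions, which is 84.4%, against 86.0% of the rest of the table. Over Treg, Th1 and naive cells together the median was 13 reads per region, both here and in the whole table. The region with the fewest reads of the whole table belonged to Cntn1 (an intron, chr15:92143667-92144076), with 0 reads in Treg, 0 in Th1 and 2 in naive cells.

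These genes carried many regions, mostly in introns. The 68 genes had 3.59 regions each on average (median 2, at most 21), against 1.85 for the other 5281 labels (median 1, at most 39). A single region was found in 28 of the 68 genes (41.2%), against 63.9% of the other labels, and 3 or more were found in another 28 (41.2%), against 17.2%. The regions lay in introns in 215 cases (88.1%, 83.4 to 91.9), in exons in 26 (10.7%) and in promoters in 3 (1.23%). The rest of the table had 78.4% in introns, 16.7% in exons and 4.86% in promoters. Region length was alike, with a median of 247 bp here and 249 bp in the rest. Gene length was not compared, and its part in the number of regions per gene was not tested.

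**Figure D1:**
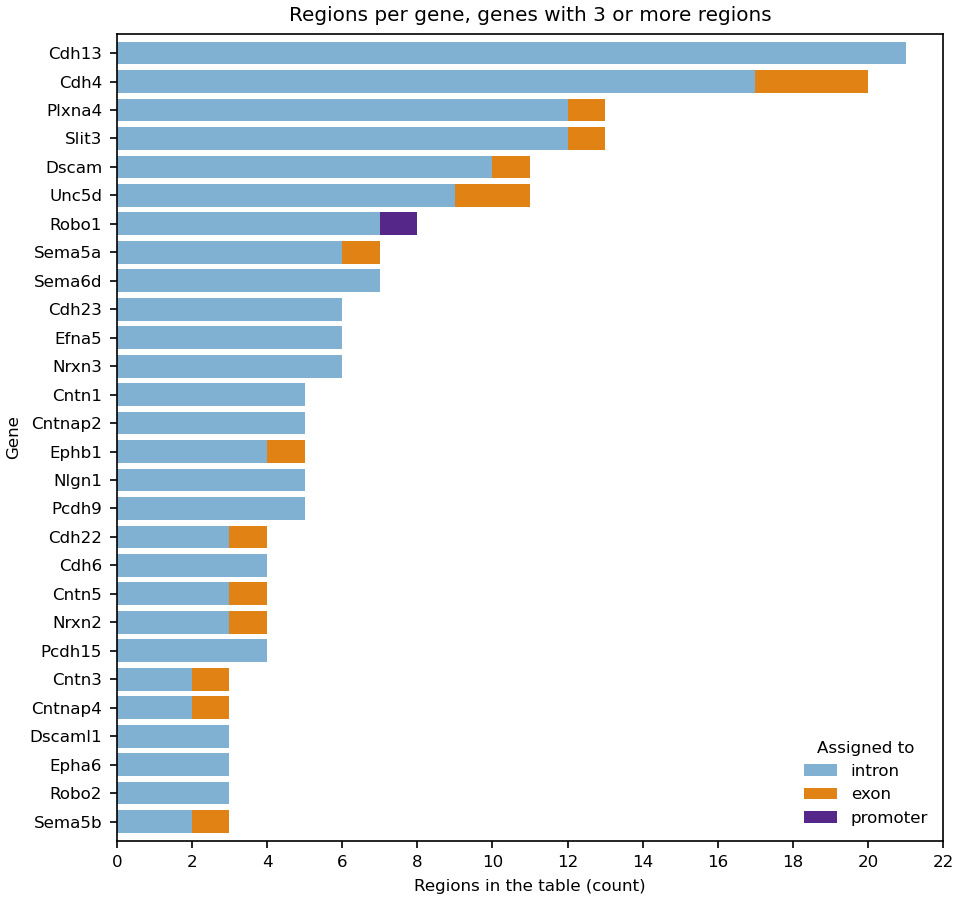
Regions per gene in the table (count, horizontal axis) for the 28 genes with 3 or more regions, with bars split by the assigned location. Cdh13 leads with 21 intronic regions, Cdh4 follows with 17 intronic and 3 exonic regions, and Robo1 is the only gene drawn with a promoter region.

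How much of a family was represented differed widely. All 3 Slit genes, both Dscam genes and all 5 genes of the Unc5 group (Unc5a to Unc5d and Unc5cl) had a region, as did 5 of 6 contactins, 5 of 7 contactin-associated proteins and 16 of 23 cadherins. Among receptors of ephrins a region was found in 5 of 9 Epha and 3 of 5 Ephb genes, and it was found in 8 of 20 semaphorins, 3 of 9 plexins and 2 of 4 Robo genes. Few ephrins were represented, with 1 of 5 Efna genes and 0 of 3 Efnb genes, and 1 of 3 neuroligins had a region. The prefixes would also take in 6 Slitrk genes and Unc50, none of which had a region. The protocadherins split by genome arrangement: 2 of 57 clustered genes (Pcdha1 and Pcdhb3) had a region, against 4 of 12 genes outside the clusters. Over all families 68 of 183 named protein-coding genes were represented (37.2%), or 66 of 126 without the clustered protocadherins (52.4%), against 20.0% of all 21900 protein-coding genes in the name table. The 20.0% counts the 4387 genes whose name matched a region's label exactly. All 68 labels of the set matched a name, so the 20.0% may be too low by comparison. Clustered protocadherins share stretches of near-identical sequence, and some of them share exons, so the assignment of their 3 regions to Pcdha1 and Pcdhb3 is uncertain.

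The genes with 8 or more regions were 7 in number and held 97 of the 244 regions (39.8%), whereas 107 other labels of the table with as many regions held 12.1% of the rest. Cdh13 (ENSMUSG00000031841), which encodes T-cadherin, a cadherin anchored to the membrane by a lipid, was sixth of all 5349 labels by regions. Its 21 intronic regions stretched over 913 kb (chr8:120876431-121788969) with a median gap of 23.8 kb. Cdh4 (ENSMUSG00000000305), which encodes R-cadherin, had 20 regions over 436 kb (chr2:179189289-179625748), 3 of them in exons 7, 11 and 13. Next came Slit3 (ENSMUSG00000056427), a secreted guidance ligand, with 13 regions over 532 kb (chr11:34989159-35521149), and Plxna4 (ENSMUSG00000029765), a semaphorin receptor, with 13 over 413 kb (chr6:32104748-32517623). Dscam (ENSMUSG00000050272), a neuronal recognition molecule, had 11 over 451 kb (chr16:96927500-97378130). Unc5d (ENSMUSG00000063626), a netrin receptor, had 11 over 533 kb (chr8:29778939-30312127). Robo1 (ENSMUSG00000022883), a Slit receptor, had 8 over 354 kb (chr16:72662036-73016316), from its promoter region to an intron.

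Within these genes the regions were seldom neighbours. Only 5 pairs lay within 1000 bp of each other, with gaps of 107 bp in Robo1, 138 and 348 bp in Plxna4, 163 bp in Dscam and 716 bp in Sema5b, so that 239 regions remained when such pairs were joined. The widest spreads belonged to genes with fewer regions: the 5 of Cntnap2, a contactin-associated protein, stretched over 1459 kb and the 6 of Nrxn3 over 1437 kb. The 244 regions fell on 18 of the 20 chromosomes of the table, with 42 on chromosome 8, 32 on 2, 29 on 16 and 23 on 6. Chromosomes 7 and X, with 609 and 200 regions in the table, held none.

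**Figure D2:**
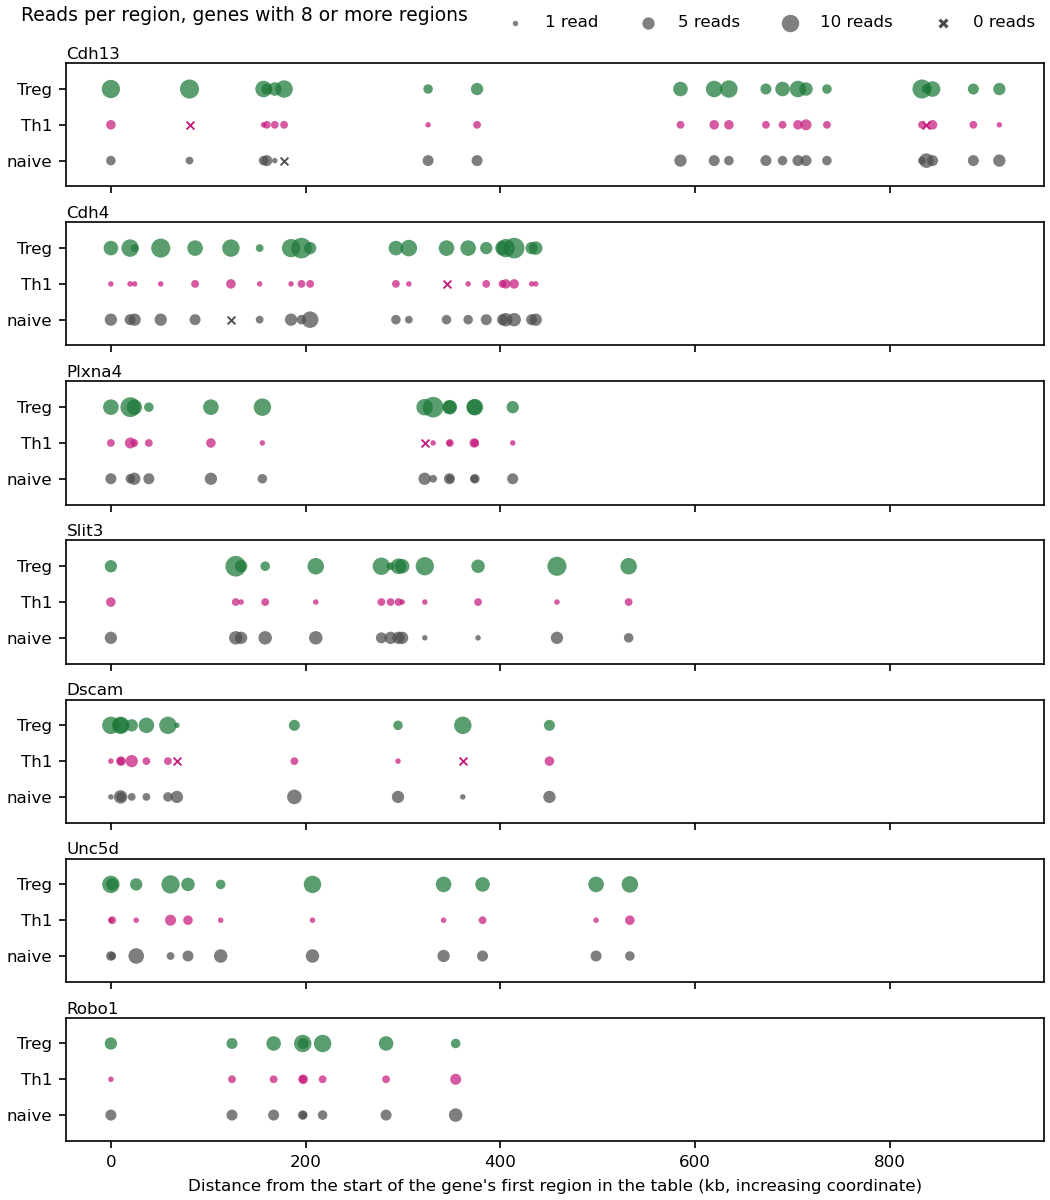
Reads per region along the 7 genes with 8 or more regions, drawn by distance from the gene's first region in the table (kb, horizontal axis), with a row each for Treg, Th1 and naive cells. Circle area follows the number of reads and a cross stands for 0 reads; regions are spread over 354 kb in Robo1 and 913 kb in Cdh13, and most are read in all 3 populations.

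Taken as a set, the regions held less captured signal in Treg and in Th1 than in naive cells on the deposited scale. The mean value per region was 2.57 in Treg (2.45 to 2.69), 3.00 in Th1 (2.73 to 3.30) and 3.67 in naive cells (3.43 to 3.92). The other regions of the table averaged 2.63 (2.61 to 2.65) in Treg, 3.29 (3.25 to 3.34) in Th1 and 3.41 (3.37 to 3.44) in naive cells. The set's mean was thus lower than that of the rest in Treg and Th1 and higher in naive cells, although the rest's mean lay inside the set's interval in Treg and Th1 and just below it in naive cells. Its regions were not among the strongest more often than others: 23 of the 1000 with the highest mean value belonged to it (2.30%, against 2.44% of the table).

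The ratio of summed values, Treg over naive, was 0.700 (0.645 to 0.759) for the 244 regions and 0.770 for the whole table. For Th1 over naive it was 0.818 (0.728 to 0.919), against 0.962 for the table. For Treg over Th1 it was 0.855 (0.770 to 0.952), against 0.800 for the table. The sources used here do not say how the constants that scale the libraries were set. With each library scaled to the same total over the table, the 3 ratios were 0.909 (0.839 to 0.986), 0.850 (0.757 to 0.955) and 1.07 (0.962 to 1.19), so the Treg to naive and Th1 to naive ratios stayed below 1 and the Treg to Th1 ratio moved above it. This scaling and the similar median of ratios shift the table's log2 Treg to naive ratio from -0.38 to 0 and -0.02, and its Treg to Th1 ratio from -0.32 to 0 and 0.07. Differences are therefore best read against the table's own value.

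**Figure D3:**
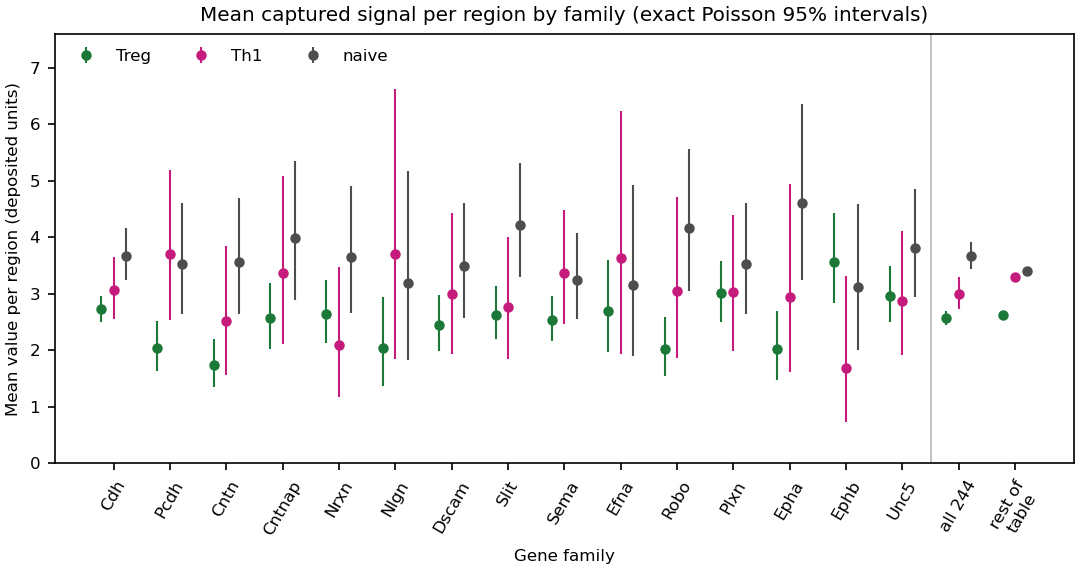
Mean value per region in deposited units (vertical axis) by gene family in Treg, Th1 and naive cells, with the 244 regions together and the rest of the table at the right; bars are exact Poisson 95% intervals. Ephb genes have 3.57 in Treg and 1.68 in Th1, the widest gap between these populations in that direction, and Epha genes have the highest naive mean at 4.61.

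Counted region by region, a difference of 2-fold or more (log2 of the ratio at least 1 in size, with 0.5 added to both values) was found in 82 regions for Treg over naive. Of these, 18 were higher in Treg (7.38%, against 8.33% of the table) and 64 were lower (26.2%, against 22.2%). For Th1 over naive, 30 regions were higher in Th1 (12.3%, against 19.4% of the table) and 82 were lower (33.6%, against 29.0%). For Treg over Th1, 46 were higher in Treg (18.9%, against 17.0%) and 48 were lower (19.7%, against 21.0%). The counts of the set thus lay near the table's shares, with fewer regions higher in Th1 than in naive cells. With each library scaled to the same table total 27 regions were higher in Treg than in naive cells (11.1%, against 15.2% of the table) and 42 were lower (17.2%, against 12.3%). For Th1 over naive the counts were then 31 higher (12.7%, against 19.6%) and 62 lower (25.4%, against 21.3%), and for Treg over Th1 they were 60 higher (24.6%, against 22.6%) and 34 lower (13.9%, against 15.2%).

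The rule turns on few reads. A region with 0 reads in Th1 counts as lower with 1 naive read, whereas a region with 1 Th1 read needs 4 naive reads. An exact binomial test of the reads of 2 libraries, 2-sided and adjusted over all 10000 regions, found 0 of the 244 regions in any of the 3 comparisons, and 1 region of the table for Treg over naive (0.0100%), 0 for Th1 over naive and 0 for Treg over Th1. An unadjusted p under 0.05 was reached by 30 of the 244 for Treg over naive, all lower in Treg (12.3%, against 8.4% of the table). It was reached by 1 for Th1 over naive (0.41%, against 1.53%) and by 7 for Treg over Th1, all lower in Treg (2.87%, against 5.01%). The lowest was at an intron of Pcdh15 (exact binomial p = 0.000319, adjusted p = 0.224). This test compares libraries and not cell types. It uses the deposited scale, where the table's own ratio was 0.770 for Treg over naive and 0.800 for Treg over Th1. With so few reads, a region higher in Treg could hardly pass. In an intron of Cdh13, 10 reads in Treg against 0 in naive cells gave exact binomial p = 0.0729. In another, 12 reads in Treg against 0 in Th1 gave exact binomial p = 0.242. The direction of the 30 and the 7 is therefore not a result about these genes.

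**Figure D4:**
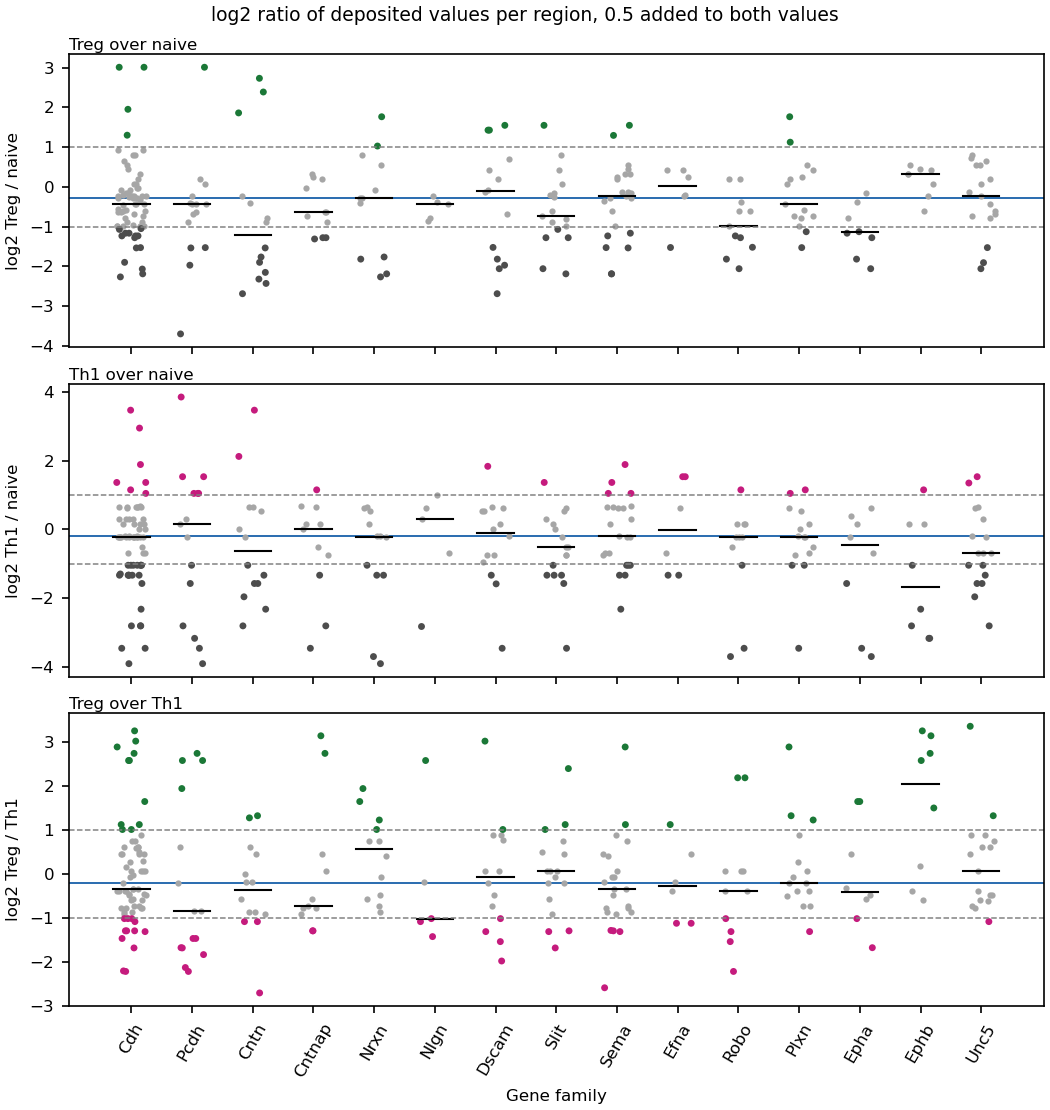
The log2 ratio of deposited values for each of the 244 regions by family, with 0.5 added to both values, for Treg over naive (top), Th1 over naive (middle) and Treg over Th1 (bottom). Black bars are family medians, the blue line is the whole table's median (-0.29, -0.19 and -0.22) and dashed lines mark the 2-fold rule, past which points are coloured by the higher population; for Treg over naive and Th1 over naive the highest and the lowest points are regions with 0 reads in 1 library.

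Among the adhesion families, 38 genes held 139 regions with 978 reads in Treg, 251 in Th1 and 507 in naive cells. The classical and related cadherins were the largest family, with 68 regions of 16 genes: 62 in introns, 6 in exons and 0 in promoters. Their mean value was 2.73 in Treg, 3.07 in Th1 and 3.68 in naive cells, and the Treg to naive ratio was 0.741 (0.637 to 0.865), near the table's 0.770. Cdh13 had 147 reads in Treg, 42 in Th1 and 73 in naive cells. Its Treg to naive ratio was 0.712 (0.535 to 0.957), and 0.926 (0.694 to 1.24) at equal table totals. Cdh4 had 161 reads in Treg, 31 in Th1 and 82 in naive cells; its Th1 to naive ratio was 0.638 (0.408 to 0.975), and 0.663 (0.424 to 1.01) at equal table totals. Cdh23, a cadherin of the tip links of sensory hair cells, had 6 intronic regions with 52 reads in Treg, 10 in Th1 and 22 in naive cells.

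The strongest cadherin region was exonic. Exon 4 of Cdh22 (chr2:164972028-164972365) had 20 reads in Treg, the highest of all 244 regions, 3 in Th1 and 5 in naive cells, and its mean value ranked 74th of the 10000 regions. Exon 16 of Cdh16, a cadherin of kidney epithelium (chr8:107138933-107139182), had 15 reads in Treg, 2 in Th1 and 1 in naive cells, a Treg to naive ratio of 5.31 (0.817 to 223) that counting error alone leaves wide. Exon 12 of Cdh5, the cadherin of endothelial junctions (chr8:106668388-106668640), had 7 reads in Treg, 0 in Th1 and 3 in naive cells. The exonic regions of Cdh4 were read in all 3 populations. They had 11, 5 and 6 reads in Treg for exons 7, 11 and 13, against 3, 1 and 1 in Th1 and 6, 4 and 5 in naive cells. Cdh1, which encodes E-cadherin, had 1 intronic region (chr8:109133701-109133888) with 6 reads in Treg, 3 in Th1 and 1 in naive cells. The other 8 cadherin genes (Cdh2, Cdh3, Cdh11, Cdh12, Cdh17, Cdh18, Cdh20 and Cdh26) had 10 intronic regions with 2 to 12 reads in Treg, 1 to 3 in Th1 and 2 to 6 in naive cells.

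The single cadherin introns given here were named for large ratios in either direction or after their values were seen. Opposite directions among them follow from that choice. In Cdh13 the region chr8:121054314-121054503 had 10 reads in Treg, 2 in Th1 and 0 in naive cells. Another Cdh13 intronic region, chr8:121713935-121714204, had 3 reads in Treg, 0 in Th1 and 7 in naive cells. Still another, chr8:120957182-120957451, had 12 reads in Treg, 0 in Th1 and 2 in naive cells. The regions named in this gene thus had opposite orders of Treg and naive reads, but none passed the adjusted exact binomial test. Cdh4 held a region with 10 reads in Treg, 3 in Th1 and 0 in naive cells (chr2:179312551-179312846), and also the region with the most naive reads of the set (chr2:179393928-179394271), with 5 in Treg, 2 in Th1 and 9 in naive cells. In Cdh6, which encodes K-cadherin, chr15:13021841-13022118 had 10 reads in Treg, 0 in Th1 and 5 in naive cells, whereas chr15:12967660-12967907 had 3, 4 and 3 in the same order of populations.

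The protocadherins had 15 regions of 6 genes: 11 in introns, 3 in exons and 1 in a promoter. They were lower in Treg than in Th1, with a mean value of 2.04 in Treg, 3.70 in Th1 and 3.52 in naive cells; the Treg to Th1 ratio was 0.553 (0.366 to 0.852), and 0.691 at equal table totals, where no family's interval lay below 1 in this comparison. Without Pcdh9 it was 0.591 (0.358 to 1.01). Pcdh9, a protocadherin outside the clusters, had 5 intronic regions with 25 reads in Treg, 11 in Th1 and 19 in naive cells, and 1 of them (chr14:93456953-93457244) had 4 reads in Treg, 0 in Th1 and 7 in naive cells. Pcdh15, the partner of Cdh23 in the tip link, held the lowest log2 ratio of the set for Treg over naive and also the highest, tied with regions of Cdh4 and Cdh13. Its region chr10:73028528-73028721 had 0 reads in Treg, 1 in Th1 and 6 in naive cells, while chr10:74044100-74044375 had 10 in Treg, 4 in Th1 and 0 in naive cells. For the second, the exact binomial test of Th1 against naive reads gave p = 0.0192 (adjusted p = 1).

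Clustered protocadherins on chromosome 18 contributed 3 regions. Pcdha1 had a region in exon 1 (chr18:37304307-37304783) with 10 reads in Treg, 4 in Th1 and 3 in naive cells, the strongest of the family, and one in exon 4 (chr18:37345537-37345686) with 8, 2 and 4. The promoter region of Pcdhb3 (chr18:37459322-37459561) lay 1012 bp upstream and had 3 reads in Treg, 4 in Th1 and 2 in naive cells, a Treg to Th1 ratio of 0.157 (0.023 to 0.93). This region did not pass the adjusted exact binomial test. Exon 4 of Pcdh17 (chr14:84934509-84934769) had 3 reads in Treg, 3 in Th1 and 4 in naive cells. The single intronic region of Pcdh7 had 7 reads in Treg, 0 in Th1 and 3 in naive cells.

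Contactins had a low Treg signal: 14 regions of 5 genes averaged 1.74 in Treg, 2.52 in Th1 and 3.56 in naive cells. The Treg to naive ratio was 0.488 (0.334 to 0.717), and 0.634 at equal table totals, where its interval still lay below 1. Cntn1, a contactin of axons, had 16 reads in Treg, 6 in Th1 and 23 in naive cells over 5 intronic regions; its Treg to naive ratio was 0.246 (0.122 to 0.487), and 0.32 (0.158 to 0.632) at equal table totals. Without Cntn1 the ratio of the family was 0.695 (0.429 to 1.15), nearer to that of the table. By region these were 4, 6, 2, 0 and 4 reads in Treg, 1, 3, 1, 0 and 1 in Th1, and 6, 3, 4, 2 and 8 in naive cells, so 4 of the 5 regions were lower in Treg by the 2-fold rule. The strongest Cntn1 region (chr15:92157542-92157957) had 4 reads in Treg, 1 in Th1 and 8 in naive cells.

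Regions of the other contactins were mostly named for large ratios in either direction, so opposite directions among them follow from that choice. The single region of Cntn6 (intron, chr6:104662535-104662758) had 1 read in Treg, 3 in Th1 and 5 in naive cells, with a Treg to naive ratio of 0.0708 (0.0015 to 0.632) and a Treg to Th1 ratio of 0.0699 (0.00133 to 0.87). The adjusted p of the exact binomial test was 0.36 for Treg over naive and 0.739 for Treg over Th1. Exon 8 of Cntn3 (chr6:102219013-102219234) had 8 reads in Treg, 1 in Th1 and 0 in naive cells. Cntn5 held 4 regions whose orders differed. Its intronic region chr9:10014098-10014392 had 6 reads in Treg, 3 in Th1 and 0 in naive cells. Exon 13 (chr9:9781335-9781680) had 14, 1 and 1, and the intronic region chr9:10813721-10813876 had 2, 1 and 6, in the same order. The only region of Cntn4 had 7 reads in Treg, 1 in Th1 and 5 in naive cells.

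Contactin-associated proteins had 11 regions of 5 genes and averaged 2.56 in Treg, 3.36 in Th1 and 3.98 in naive cells. Their Treg to naive ratio was 0.643 (0.440 to 0.952), and 0.836 (0.571 to 1.24) at equal table totals. Cntnap2, which clusters potassium channels beside the nodes of axons, had 5 intronic regions with 35 reads in Treg, 12 in Th1 and 19 in naive cells, and its strongest (chr6:47222844-47223152) had 11, 4 and 4. The only region of Cntnap5a (intron, chr1:118345880-118346107) had 11 reads in Treg, 0 in Th1 and 3 in naive cells, and that of Cntnap3 had 10, 2 and 3. Exonic regions were found in exon 2 of Cntnap4 (chr8:115140077-115140450), with 5 reads in Treg, 3 in Th1 and 3 in naive cells, and in exon 16 of Cntnap5c (chr17:58433648-58433888), with 5, 3 and 5.

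The 2 sides of the synaptic pair had unlike means in Th1, within counting error. Neurexins, the presynaptic side, had 12 regions and averaged 2.64 in Treg, 2.10 in Th1 and 3.65 in naive cells, whereas the 5 regions of Nlgn1, the postsynaptic side, averaged 2.04 in Treg, 3.70 in Th1 and 3.19 in naive cells. The Th1 to naive ratios were 0.575 (0.297 to 1.05) for neurexins and 1.16 (0.487 to 2.66) for Nlgn1, with intervals that overlap. Nrxn3 had 47 reads in Treg, 7 in Th1 and 21 in naive cells over 6 intronic regions, of which chr12:90228811-90229037 was the strongest (8, 3 and 3) and chr12:90585786-90586017 had 4 reads in Treg, 0 in Th1 and 6 in naive cells. Exon 5 of Nrxn2 (chr19:6464545-6464790) had 3 reads in Treg, 0 in Th1 and 7 in naive cells. In Nlgn1 the region chr3:25932518-25932740 had 8 reads in Treg, 5 in Th1 and 4 in naive cells.

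Dscam and Dscaml1 had 14 regions with a mean value of 2.44 in Treg, 3.00 in Th1 and 3.49 in naive cells. Dscam itself had 73 reads in Treg, 21 in Th1 and 40 in naive cells, with 2 intronic regions unread in Th1. Exon 13 (chr16:96937513-96937745) was its strongest region, with 10 reads in Treg, 2 in Th1 and 6 in naive cells. The intronic region chr16:96995288-96995523 had 1 read in Treg, 0 in Th1 and 5 in naive cells, a Treg to naive ratio of 0.0708 (0.0015 to 0.632). It was named for this ratio and did not pass the adjusted exact binomial test. Regions of opposite order also stood side by side in Dscaml1, a paralog of Dscam, with 11, 3 and 10 reads in Treg, 1, 2 and 1 in Th1, and 1, 6 and 2 in naive cells.

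Guidance ligands held 46 regions of 12 genes, with 339 reads in Treg, 87 in Th1 and 166 in naive cells. The Slit genes, whose products repel axons, had 17 regions and averaged 2.63 in Treg, 2.77 in Th1 and 4.22 in naive cells. Their Treg to naive ratio was 0.624 (0.464 to 0.845), and 0.811 (0.603 to 1.10) at equal table totals, where the interval took in 1. Slit3 held 13 of these regions, with 101 reads in Treg, 22 in Th1 and 57 in naive cells. Its strongest region (intron, chr11:35117402-35117726) had 14 reads in Treg, 2 in Th1 and 6 in naive cells, and exon 20 had 12, 1 and 5. Slit1 and Slit2 had 2 intronic regions each, with 5 to 8 reads in Treg, 0 to 3 in Th1 and 2 to 5 in naive cells.

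Semaphorins had 23 regions of 8 genes, 4 of them in exons, and were near the table in all 3 comparisons: 2.54 in Treg, 3.36 in Th1 and 3.25 in naive cells. Secreted class 3 members were represented by Sema3a, Sema3c, Sema3d and Sema3e. Sema3a had 2 intronic regions with 11 and 3 reads in Treg, 4 and 2 in Th1, and 3 and 4 in naive cells, and Sema3e had 1 with 9, 2 and 1. Sema3d had the strongest region of the family (intron, chr5:12410822-12411117), with 13 reads in Treg, 2 in Th1 and 6 in naive cells. The exon 1 region of Sema3c (chr5:17200475-17200665), whose CG-rich promoter window is printed above, had 12 reads in Treg, 1 in Th1 and 3 in naive cells. Among membrane-bound members, Sema5a had 7 regions with 49 reads in Treg, 14 in Th1 and 24 in naive cells. One of them (intron, chr15:32566753-32566982) had 2 reads in Treg, 4 in Th1 and 3 in naive cells, a Treg to Th1 ratio of 0.105 (0.00948 to 0.732). Its exact binomial p for Treg over Th1, the lowest of the set, was 0.0101 (adjusted p = 0.668). Sema6d also had 7 regions, with 41 reads in Treg, 11 in Th1 and 20 in naive cells.

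The remaining semaphorin exons showed 5 reads in Treg, 3 in Th1 and 4 in naive cells for exon 5 of Sema4g, 5, 2 and 2 for exon 3 of Sema5a, and 7, 4 and 4 for exon 6 of Sema5b. Ephrins, the membrane-bound ligands of Eph receptors, were represented by Efna5 alone. Its 6 intronic regions had 46 reads in Treg, 13 in Th1 and 19 in naive cells, all read in all 3 populations. The strongest 2, tied, were chr17:63168669-63168961 and chr17:63134693-63134950, each with 8 reads in Treg, 4 in Th1 and 2 in naive cells.

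Guidance receptors, counted together with Unc5cl, held 59 regions of 18 genes, with 461 reads in Treg, 98 in Th1 and 226 in naive cells. The Robo genes, receptors of Slit, averaged 2.02 in Treg, 3.06 in Th1 and 4.17 in naive cells over 11 regions; the Treg to naive ratio was 0.485 (0.326 to 0.725), and 0.630 at equal table totals, with an interval still below 1. Without Robo1 it was 0.287 (0.127 to 0.637), which is Robo2 alone, with 3 regions, 13 reads in Treg and 16 in naive cells. For Robo1 alone it was 0.590 (0.368 to 0.961), and 0.766 (0.478 to 1.25) at equal table totals. Robo1 had 50 reads in Treg, 18 in Th1 and 30 in naive cells. Its promoter region (chr16:72662036-72662428), 1162 bp upstream, had 5 reads in Treg, 1 in Th1 and 4 in naive cells. At the other end of the gene, the intronic region chr16:73016111-73016316 had 3 reads in Treg, 4 in Th1 and 6 in naive cells. Robo2 had 3 intronic regions, 2 of them unread in Th1, among them chr16:74346001-74346181 with 5 reads in Treg, 0 in Th1 and 6 in naive cells.

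Plexins, receptors of semaphorins, averaged 3.01 in Treg, 3.03 in Th1 and 3.52 in naive cells over 15 regions, 13 of them in Plxna4. Plxna4 had 108 reads in Treg, 24 in Th1 and 46 in naive cells, with a Treg to naive ratio of 0.831 (0.583 to 1.20). Its strongest region (intron, chr6:32124747-32125047) had 13 reads in Treg, 4 in Th1 and 3 in naive cells, and exon 4 had 10, 1 and 3. Exon 23 of Plxnb2 (chr15:88989901-88990097) had 7 reads in Treg, 2 in Th1 and 6 in naive cells, and an intron of Plxnc1, a receptor of the semaphorin Sema7a, had 13, 1 and 1. Netrin receptors of the Unc5 family and Unc5cl together had 17 regions and averaged 2.96 in Treg, 2.87 in Th1 and 3.81 in naive cells. The intronic Unc5a region chr13:55069671-55069996 had 15 reads in Treg, 5 in Th1 and 3 in naive cells. Unc5d had 82 reads in Treg, 20 in Th1 and 47 in naive cells, and its exon 2 and exon 11 regions had 10 and 5 in Treg, 1 and 1 in Th1, and 6 and 8 in naive cells. An intronic region of Unc5c (chr3:141251404-141251614) had 13 reads in Treg, 0 in Th1 and 3 in naive cells. The introns of Unc5b had 14 and 9 reads in Treg, 1 and 1 in Th1, and 3 and 2 in naive cells, and that of Unc5cl had 7, 1 and 3.

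The 2 classes of Eph receptor stood at opposite ends of the families for Treg over naive, though not for Th1 over naive, where both were low. Epha genes, whose products mainly bind A-class ephrins, averaged 2.03 in Treg, 2.94 in Th1 and 4.61 in naive cells over 8 regions of 5 genes, with the lowest Treg to naive ratio of any family at 0.440 (0.279 to 0.697), and 0.571 at equal table totals. Ephb genes averaged 3.57 in Treg, 1.68 in Th1 and 3.11 in naive cells over 8 regions of 3 genes, and were the only family whose Treg to naive ratio lay above 1, at 1.15 (0.724 to 1.87). The Treg to Th1 ratio of Ephb was 2.12 (1.03 to 5.08), and 2.65 (1.28 to 6.36) at equal table totals, resting on 81 reads in Treg and 8 in Th1. Th1 had no read in 4 of the 8 Ephb regions, and 7 of its 8 reads fell in Ephb1; without that gene the ratio was 6.50 (1.08 to 265). Without Epha6 the Treg to naive ratio of Epha was 0.297 (0.158 to 0.553). Epha6 itself had 0.737 (0.357 to 1.61). No test of the difference between the 2 classes was made.

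Within Epha, the strongest region of the whole set lay in an intron of Epha6 (chr16:59677217-59677546, 15 reads in Treg, 4 in Th1 and 6 in naive cells), and its mean value ranked 52nd in the table. The Epha8 promoter region (chr4:136513917-136514158), 1307 bp upstream, had 5 reads in Treg, 4 in Th1 and 5 in naive cells. The Epha3 and Epha5 regions and 1 of the 2 Epha7 regions had 3 reads in Treg, against a median of 7 over the set. The single Epha3 region had 3 reads in Treg, 0 in Th1 and 5 in naive cells, that of Epha5 had 3, 1 and 3, and the Epha7 regions had 3 and 7 in Treg, 0 and 1 in Th1, and 6 and 6 in naive cells. Within Ephb, all 5 Ephb1 regions had 7 to 12 reads in Treg, against 0 to 3 in Th1 and 2 to 4 in naive cells. Exon 7 of Ephb1 (chr9:101903897-101904199) had 12 reads in Treg, 0 in Th1 and 4 in naive cells. Exon 18 of Ephb4 (chr5:137814861-137815250) had 16, 1 and 4, and both intronic Ephb2 regions were unread in Th1.

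**Figure D5:**
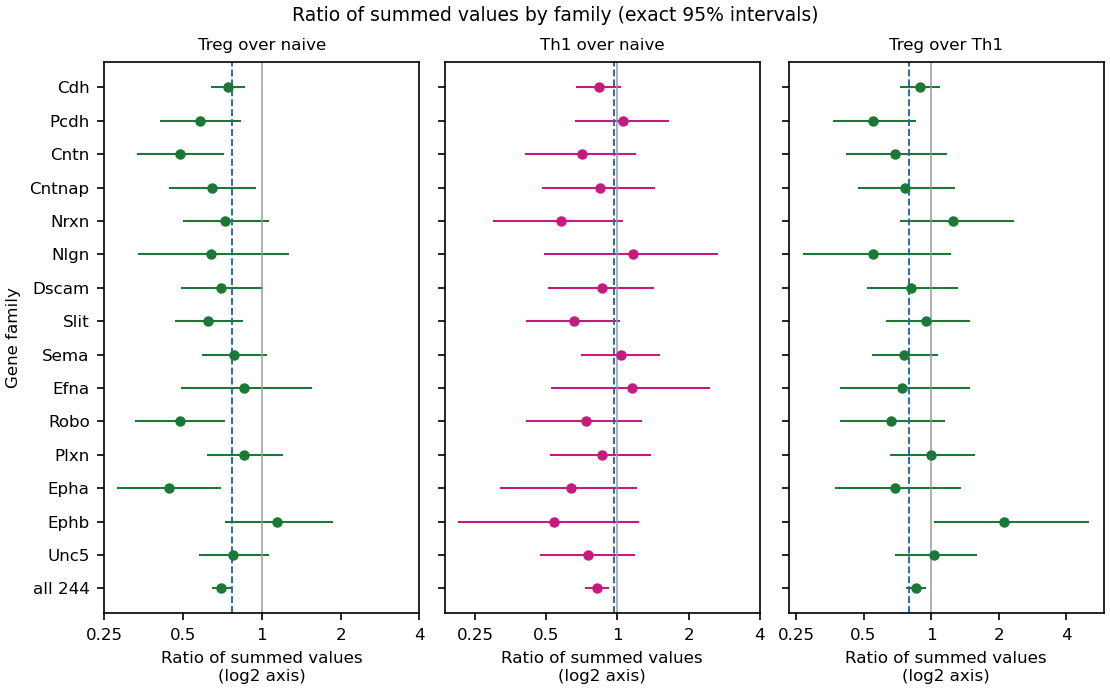
Ratio of summed deposited values (log2 axis) by family for Treg over naive (left), Th1 over naive (middle) and Treg over Th1 (right), with exact 95% intervals; the dashed line is the whole table (0.770, 0.962 and 0.800) and the grey line is 1. For Treg over naive, 14 of 15 families lie below 1 and Ephb lies above it.

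Across the 15 families the Treg to naive ratio was below 1 in 14, and the interval lay below 1 in 7; at equal table totals these numbers were 10 and 3, the 3 being contactins, Robo and Epha. For Th1 over naive 11 families were below 1 on both scales, and 0 intervals left out 1. The lowest were Ephb at 0.540 (0.211 to 1.23) and neurexins. For Treg over Th1, 12 families were below 1 as deposited and 8 at equal table totals, so the direction in this comparison depends on the scaling for some families. By location, exonic regions averaged 3.13 in Treg, 2.97 in Th1 and 4.06 in naive cells, and intronic regions averaged 2.51, 2.98 and 3.62, with Treg to naive ratios of 0.771 (0.610 to 0.980) for exons and 0.694 (0.636 to 0.757) for introns. The rest of the table had 0.880 in exons and 0.750 in introns.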

How the data were processed

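Methylated DNA was captured with MethylCap and sequenced in 1 library per population (protocols in the labels). Bowtie 0.12.7, FastQC and mm9 are named by the submitters' processing notes; the sources used here do not say how regions were called, annotated and chosen. Per region and library, the deposited table gives a signal, which the authors scaled in a way not stated; in Treg, Th1 and naive cells 100% of values were whole multiples of 1 constant within a relative tolerance of 1e-06, and reads were recovered by division. The distance of promoter regions is the deposited one, and its anchor is not stated. Values were compared as deposited, with a pseudocount of 0.5 and a 2-fold rule, as no test between populations is possible with 1 library each. Ratios of sums carry exact conditional binomial intervals and means carry exact Poisson intervals, both at 95%. An exact binomial test on reads (2-sided, Benjamini-Hochberg over 10000 regions, threshold 0.05) was an alternative; the script was tested on simulated data. Gene labels were matched to a GRCm38.p6 RefSeq name table (68 of 68), used for names and family sizes only. Named regions were, per comparison and direction, the 5 with the largest ratio, 1 per gene; per family, the gene with the most regions and the region with the highest mean value; genes with 8 or more regions; and all genes with an exonic or promoter region. The other member genes are given for completeness, except for an item that is not reported here; the Cdh4 region with the most naive reads and the family ratios without 1 gene were chosen after the values were seen. The members, lists and rules were chosen with earlier results of these data known. Tools were Python 3.11.15, pandas 2.3.3, numpy 2.4.6, scipy 1.17.1 and matplotlib 3.10.9.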

Additional observations from a re-analysis of the deposited data

How the results depend on the processing

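Of 78 alternatives to the reported values, 48 stayed within 1.5 times of a count or within the counting error of a value, and 30 moved. Counts are given with the table's share at the same setting in brackets. For Treg over naive the 18 higher regions became 29 at 1.5-fold (16.1%), 5 at 4-fold (1.62%), 0 with a pseudocount of 5 (0.06%) and 0 by the exact binomial test (0%). The 64 lower became 111 (39.2%), 19 (3.46%), 3 (0.73%) and 0 (0.01%) in that order, 42 at equal table totals (12.3%) and 35 among regions with at least 10 reads (16.4%). That last filter kept 202 regions of the set, of which the 35 are 17.3%. For Th1 over naive the 30 higher became 59 (31.6%), 5 (4.08%), 3 (1.91%) and 0 (0%) under the same 4 settings. The 82 lower became 31 at 4-fold (12.0%), 6 with a pseudocount of 5 (2.21%) and 0 by the exact test (0%). For Treg over Th1 the 46 higher became 23 (9.78%), 0 (0.18%) and 0 (0%) under the same 3. The 48 lower became 85 at 1.5-fold (35.2%), 7 at 4-fold (3.22%), 1 with a pseudocount of 5 (1.71%), 26 by median of ratios (12.2%) and 0 by the exact test (0%). By median of ratios the split of higher to lower was 26 (13.4%) to 43 (13.1%) for Treg over naive and 60 (22.7%) to 26 for Treg over Th1. The log2 ratio of summed values, Treg over naive, was -0.52, and became -0.14 at equal table totals, -0.16 by median of ratios and -0.37 among regions with at least 10 reads, where the table had -0.27. For Treg over Th1 it was -0.23, and became 0.10 and 0.17 under the 2 scalings, so its sign depends on the scaling. The scalings differ by construction; the other causes were not tested. The Th1 to naive ratio, the intronic share and the number of regions per gene stayed within these limits under every alternative run, including joined neighbours, without Cntnap genes and without Cdh13. Chosen after seeing the data, 5 family ratios were also computed without the family's gene with the most regions: contactins and protocadherins then had intervals that took in 1, and Robo, Epha and Ephb moved further from 1. No paired analysis was possible because each population has 1 library, and for the same reason no library could be left out. Depth limits single regions: the median of 2 reads in Th1 cannot show a moderate difference.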

Other observations

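Partner genes of the same pathways were counted with the same rule. Of 64 listed genes (netrins and Dcc, neuropilins, catenins, Fat cadherins, L1-type adhesion molecules, latrophilins, calsyntenins and others), 38 had a region, with 120 regions in all: 109 in introns, 11 in exons and 0 in promoters. Of all protein-coding genes in the name table, 20.0% had a region. Introns held 90.8% of the 120 regions, against 78.65% of the whole table. The genes with the most regions were Ctnnd2 (14) and Ctnna3 (11), which encode catenins, Clstn2 (12), a calsyntenin, Dcc (7), the netrin receptor, and Ntn1 (7), a netrin. The list held 841 reads in Treg, 232 in Th1 and 430 in naive cells. The Treg to naive ratio was 0.692 (0.615 to 0.779), against 0.700 for the cadherin, neurexin and guidance set and 0.770 for the table. At equal table totals it was 0.899 (0.799 to 1.01), an interval that takes in 1. The Th1 to naive ratio was 0.910 (0.773 to 1.07), against 0.962 for the table. By the 2-fold rule 9 regions were higher in Treg than in naive cells (7.5%, against 8.33% of the table) and 41 lower (34.2%, against 22.2%). In Th1 over naive 28 were higher (23.3%, against 19.4%) and 41 lower (34.2%, against 29.0%), and in Treg over Th1 25 were higher (20.8%, against 17.0%) and 26 lower (21.7%, against 21.0%).

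Of the marker genes of other cells, 0 of 5 myeloid and 0 of 4 CD8 and NK genes had a region in the table. A captured region reports methylated DNA and not expression, so these counts do not measure sort purity.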
